A study of Homo sapiens with 31 samples.

Results

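The HOX genes of the A, B, C and D clusters are the transcription factor genes whose symbol is HOX, a cluster letter and a paralogue number. Every gene whose symbol fits was taken, and 36 of the 17113 genes counted here met the rule: 11 of HOXA, 9 of HOXB, 9 of HOXC and 7 of HOXD. The family itself was chosen with earlier results of these data known. HOXB1, HOXD10 and HOXD12 were not analysed here. The clusters lie on chromosomes 7, 17, 12 and 2 for A, B, C and D. The series holds RNA sequencing of colon cell lines made to test the estimation of cancer RNA shares in mixtures. LoVo, HT-29 and HCT116 are labelled as colon adenocarcinoma lines and LS1034 as an adenocarcinoma line of the cecum. CCD841CoN is labelled as a normal colon line. Each line had 3 libraries of unmixed total RNA, and no line carried a treatment. Each cancer line also had 1 mixture with 0.1, 1, 10 and 50% of its RNA, the rest being CCD841CoN RNA, which gave 16 mixtures among 31 libraries.

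HOX genes encode homeodomain proteins that give cells of the embryo their position along the body axis. Within a cluster the genes stand in the order of their paralogue numbers: low numbers act towards the head, high numbers towards the tail and the hindgut. Adult cells keep much of this code, and fibroblasts of different body sites can be told apart by it. Neighbouring genes of a cluster share chromatin domains, and antisense RNAs run between them. The libraries were made with a stranded kit, but the strand setting of the counting is not given in the sources used here, so reads of a HOX gene and of an antisense or overlapping partner cannot be told apart.

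Levels are CPM, counts relative to library size, with library sizes scaled by the trimmed mean of M values (TMM). The libraries held 9688765 to 56741879 counts, of which 2021 to 30440 fell on the HOX genes. Counting errors and floors cover counting only, and 3 libraries a line limit the rest. Whether separate cultures gave the 3 libraries of a line is not in the labels, so p-values measure the spread between these libraries, which may be technical. No other normal line was sequenced, and so the effects of being a cancer line and of being another type of cell cannot be told apart. The 8 fibroblast and mesenchymal markers summed to 1.36 to 32.2 CPM in the 12 cancer libraries and to 28417 to 34596 CPM in the CCD841CoN libraries. The 6 epithelial markers summed to 3120.2 to 24294 CPM in the cancer libraries and to 255 to 344 CPM in CCD841CoN, where the defining marker EPCAM stood at 0.345, 0 and 0 CPM. KRT18, a keratin of simple epithelia, averaged 2317, 2336, 5160.2 and 825 CPM in LoVo, LS1034, HT-29 and HCT116, against 251 CPM in CCD841CoN, so this keratin was lower there but present. Of the other epithelial markers, CDH1 averaged 0.252 CPM, KRT8 12.1 CPM and KRT19 44.8 CPM in CCD841CoN. The 3 smooth muscle markers summed to 1.56 to 13.8 CPM in the cancer lines and to 1359 to 1586 CPM in CCD841CoN. Endothelial markers (2 genes) and immune markers (2 genes) stayed at or under 3.74 and 0.441 CPM in every unmixed library. The part of cell type in the HOX differences was not tested.

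Promoters of 17 of the HOX genes, 23 distinct windows of 300 bases from 250 before to 50 after a transcript start, were matched in RefSeq (GRCh38.p14; the counts were made on hg19); HOXC4 and HOXC5 share 1 window, which was counted once. They are shown for HOXA13, HOXA9, HOXD13 and HOXD8 as 4 genes whose levels differ between lines in the values that follow. Each is written 5′ to 3′ on the strand of its gene, and capitals mark the caudal-type motif TTTATG or its reverse complement CATAAA, searched on both strands.
HOXA13, chr7:27200042-27200341, minus strand: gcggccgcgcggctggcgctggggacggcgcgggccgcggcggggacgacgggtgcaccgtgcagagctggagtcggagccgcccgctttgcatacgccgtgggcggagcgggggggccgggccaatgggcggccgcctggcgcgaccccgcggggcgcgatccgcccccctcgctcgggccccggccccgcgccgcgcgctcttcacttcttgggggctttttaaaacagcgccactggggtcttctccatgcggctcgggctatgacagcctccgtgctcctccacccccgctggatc
HOXA9, chr7:27165488-27165787, minus strand: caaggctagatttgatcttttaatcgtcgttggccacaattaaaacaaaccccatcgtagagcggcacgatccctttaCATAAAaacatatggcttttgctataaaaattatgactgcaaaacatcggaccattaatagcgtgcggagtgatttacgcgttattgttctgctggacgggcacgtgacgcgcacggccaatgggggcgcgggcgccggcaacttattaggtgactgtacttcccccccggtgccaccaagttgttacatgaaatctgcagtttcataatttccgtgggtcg
HOXD13, chr2:176092471-176092770, plus strand: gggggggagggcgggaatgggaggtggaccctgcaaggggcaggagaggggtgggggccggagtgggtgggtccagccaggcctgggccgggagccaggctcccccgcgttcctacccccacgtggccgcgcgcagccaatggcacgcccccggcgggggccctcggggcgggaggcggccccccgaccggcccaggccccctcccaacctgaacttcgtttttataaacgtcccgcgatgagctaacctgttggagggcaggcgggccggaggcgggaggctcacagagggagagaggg
HOXD8, chr2:176129455-176129754, plus strand: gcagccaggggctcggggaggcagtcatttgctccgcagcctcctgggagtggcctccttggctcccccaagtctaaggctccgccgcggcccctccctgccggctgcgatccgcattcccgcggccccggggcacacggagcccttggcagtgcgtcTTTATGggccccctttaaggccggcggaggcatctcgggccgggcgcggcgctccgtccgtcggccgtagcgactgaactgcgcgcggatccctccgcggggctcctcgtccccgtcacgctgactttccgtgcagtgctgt
The motif was present in 3 of the 23 HOX windows (13.04%), namely once each for HOXA9 and HOXD8 and 3 times in 1 window of HOXA3, against 10.6% of all 34943 distinct windows. The windows of HOXA13, HOXA9, HOXD13 and HOXD8 held 44, 22, 24 and 34 CpG dinucleotides, and the median was 24 over the HOX windows and 14 over all windows. A match to these letters is a description of the window and not a binding site.

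Summed by cluster, the lines split along the cluster letters. In bulk RNA fewer expressing cells and less RNA per cell cannot be told apart. The HOXA genes together stood at 379 ± 54.1 CPM in LoVo, 307 ± 72.7 in LS1034, 241 ± 42.7 in HT-29, 180.3 ± 45.7 in HCT116 and 1.30 ± 0.502 in CCD841CoN (mean ± SD, n = 3 libraries each). Every cancer library exceeded 100 CPM for the cluster and no CCD841CoN library reached 2 CPM. The HOXC genes went the other way between the cancer lines and CCD841CoN, with 2.94 ± 0.642 CPM in LoVo, 6.34 ± 4.10 in LS1034, 13.8 ± 1.73 in HT-29, 14.8 ± 4.38 in HCT116 and 122 ± 14.5 in CCD841CoN. Among the cancer lines, libraries of different lines overlapped in part for both clusters. The HOXB genes were present in every line, at 130.3 ± 51.1 CPM in LoVo, 317 ± 56.3 in LS1034, 195 ± 17.7 in HT-29, 108 ± 19.0 in HCT116 and 102 ± 12.5 in CCD841CoN. HOXD was low everywhere except in LoVo, with 37.3 ± 12.9 CPM in LoVo, 3.27 ± 1.58 in LS1034, 0.573 ± 0.515 in HT-29, 4.76 ± 1.13 in HCT116 and 1.61 ± 0.518 in CCD841CoN.

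The makeup of the HOX transcripts differed as well. HOXA took 69.0% of the HOX reads in LoVo, 48.5% in LS1034, 53.6% in HT-29, 58.5% in HCT116 and 0.571% in CCD841CoN. HOXC took 0.534 to 4.78% in the cancer lines and 53.7% in CCD841CoN. By paralogue number, the 14 genes numbered 9 to 13 took 75.8 ± 7.39% of the HOX reads in LoVo, 60.8 ± 3.43% in LS1034, 62.8 ± 1.39% in HT-29, 63.7 ± 7.99% in HCT116 and 5.36 ± 0.416% in CCD841CoN. The 15 genes numbered 4 to 8 took 21.3 to 33.2% on average in the cancer lines and 71.0 ± 4.15% in CCD841CoN, and the 7 genes numbered 1 to 3 took 2.89 to 8.66% in the cancer lines and 23.7 ± 3.80% in CCD841CoN. Per kilobase of exon (GENCODE v29 exon lengths), genes 9 to 13 still made up 52.1 to 62.3% of the HOX level in the cancer lines and 6.10% in CCD841CoN. On that scale genes 4 to 8 made up 35.6 to 42.4% in the cancer lines and 67.9% in CCD841CoN. In summed level, genes 9 to 13 stood at 415, 388, 283 and 197 CPM in LoVo, LS1034, HT-29 and HCT116, against 12.2 CPM in CCD841CoN. Genes 4 to 8 summed to 119, 195, 129 and 102 CPM in the same cancer lines, around the 161 CPM in CCD841CoN. Genes 1 to 3 summed to 16.1, 50.3, 38.9 and 9.33 CPM, against 53.8 ± 8.17 CPM in CCD841CoN. LS1034 (SD 12.9) and HT-29 (SD 13.1) did not stand apart from CCD841CoN.

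**Figure D1:**
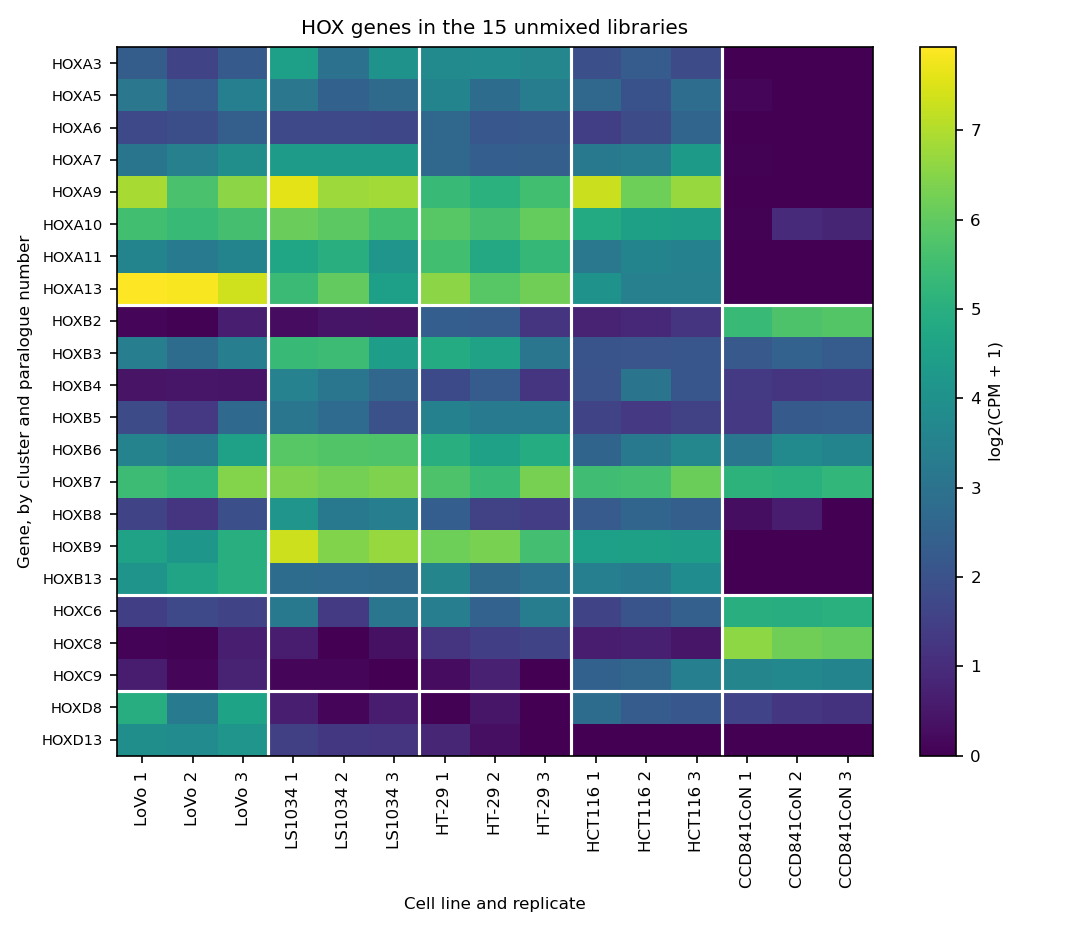
Level, as log2(CPM + 1), of the 22 HOX genes with a mean of at least 3 CPM in a line, in the 15 unmixed libraries. Genes run down the page in cluster and paralogue order and libraries run across, with white lines between clusters and lines. The HOXA block was dark in the 3 CCD841CoN libraries, where HOXC6, HOXC8, HOXC9 and HOXB2 were bright.

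**Figure D2:**
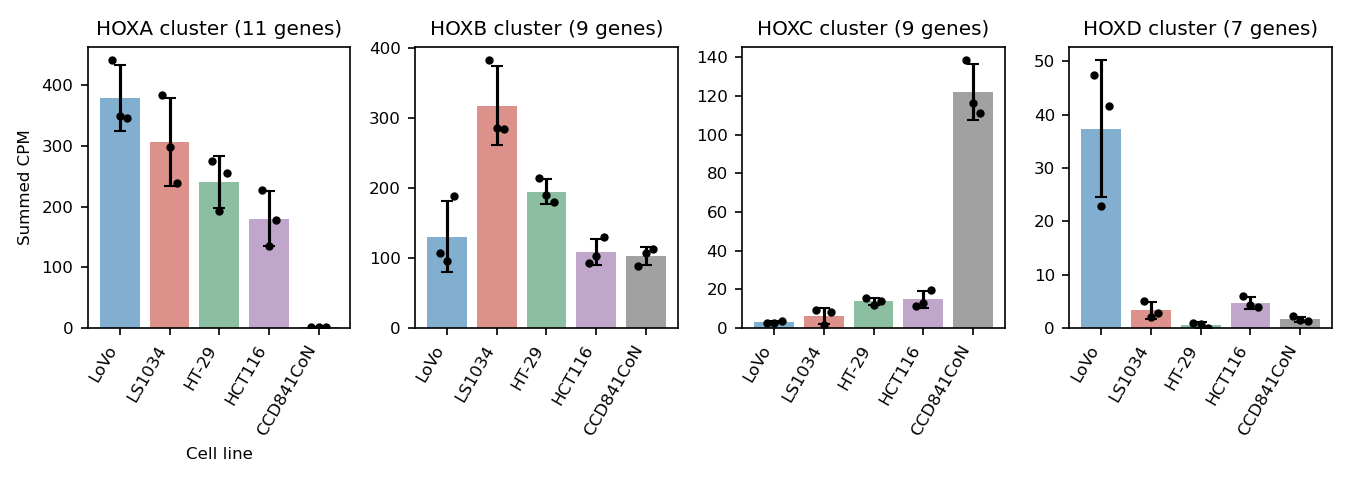
Summed CPM of the HOXA, HOXB, HOXC and HOXD genes in the 5 unmixed lines. Bars are means, error bars 1 SD and points the 3 libraries; each panel has its own axis. HOXA stood at 180.3 CPM or more on average in the cancer lines and at 1.30 CPM in CCD841CoN, and HOXC at 2.94 to 14.8 CPM in the cancer lines and 122 CPM in CCD841CoN.

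The counts were tested with edgeR's quasi-likelihood test and Benjamini-Hochberg adjustment over 14452 genes, and a call needed both an adjusted p under 0.05 and a log2 fold change of 1 or more in either direction. Of the HOX genes 32 were tested; HOXC11, HOXC12, HOXD4 and HOXD11 were too low, at no more than 0.522 CPM in any unmixed library. Against CCD841CoN, 21 HOX genes were called in LoVo, when 48.0% of all genes tested were called: 14 were higher (26.5% of all genes) and 7 lower (21.6%). In LS1034 25 were called (47.1% of all genes), 19 of them higher (25.7%) and 6 lower (21.4%). In HT-29 23 were called (45.7%), 18 higher (24.7%) and 5 lower (20.9%). In HCT116 18 were called (46.7%), 15 higher (25.4%) and 3 lower (21.2%). The median log2 fold change of the HOX genes was 2.34 in LoVo, 2.72 in LS1034, 2.95 in HT-29 and 1.44 in HCT116, against 0.21 to 0.24 over all genes tested. These 4 comparisons share the CCD841CoN libraries. Scaling by library size alone would raise every log2 fold change against CCD841CoN by 0.16 to 0.28, and DESeq2-type factors would lower them by 0.11 to 0.24.

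By cluster the calls went different ways. HOXA genes were called higher in 8 (LoVo), 10 (LS1034), 10 (HT-29) and 9 (HCT116) of 11 tested and lower in none. HOXC genes were called lower in 5, 4, 3 and 2 of 7 tested in the same order of lines and higher in 0, 0, 1 and 2. HOXB genes were called higher in 3, 7, 6 and 4 of 9 and lower in 2, 1, 1 and 1. HOXD genes were called higher in 3, 2, 1 and 0 of 5 and lower in 0, 1, 1 and 0. Of all genes tested, 24.7 to 26.5% were called higher and 20.9 to 21.6% lower in these lines. The HOXC counts in HCT116, 2 lower and 2 higher of 7, lie near these shares. The lower counts of HOXB and HOXD lie near or under them. In the mean of the 4 lines against CCD841CoN 18 HOX genes were called (47.1% of all genes), 13 higher (24.8%) and 5 lower (22.3%). The genes with a mean of at least 10 CPM in a line, 18 in all, are described next.

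The tail-end HOXA genes had counts in every cancer library and few or none in CCD841CoN. HOXA13, the last gene of its cluster, patterns the hindgut and the distal limb and is mutated in hand-foot-genital syndrome. Its level was 243, 231 and 161 CPM in LoVo, 41.4, 64.7 and 21.3 in LS1034, 92.8, 57.6 and 72.5 in HT-29 and 15.4, 10.0 and 10.1 in HCT116, and no CCD841CoN library had a count. Against the floor of 3 counts over the CCD841CoN libraries, HOXA13 was at least 3022-fold higher in LoVo, 606-fold in LS1034, 1060.3-fold in HT-29 and 169-fold in HCT116 (adjusted p of at most 1.56e-07). All 12 cancer libraries lay above all CCD841CoN libraries, and LoVo lay above the other cancer lines.

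HOXA9, known for its role in blood progenitors and in myeloid leukaemia, stood at 117, 49.0 and 92.9 CPM in LoVo, 195, 109 and 112 in LS1034, 39.8, 32.2 and 45.5 in HT-29 and 155, 71.7 and 104 in HCT116, with no count in CCD841CoN. It was at least 1234-fold higher in LoVo, 1979-fold in LS1034, 559-fold in HT-29 and 1572-fold in HCT116 (adjusted p of at most 4.80e-08). Replicate 2 was the lowest library of each cancer line for HOXA9, and the lines overlapped except HT-29, which lay below the others. HOXA10, required for the uterus in mice, stood at 45.4, 39.96 and 46.8 CPM in LoVo, 69.1, 59.8 and 44.7 in LS1034, 58.1, 47.5 and 65.8 in HT-29 and 27.9, 21.8 and 20.4 in HCT116, against 0.0431, 0.936 and 0.782 CPM in CCD841CoN. The log2 fold changes of HOXA10 were 6.34 ± 0.58, 6.85 ± 0.59, 6.75 ± 0.59 and 5.42 ± 0.57 (± SE, as for all log2 fold changes given here) for LoVo, LS1034, HT-29 and HCT116, all called. Readthrough transcripts join HOXA10 and HOXA9, so the authors' counting may have split reads between them.

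HOXA11, which acts with HOXA10 in the reproductive tract and limb, stood at 10.9, 8.41 and 11.02 CPM in LoVo, 24.8, 31.3 and 16.6 in LS1034, 45.1, 26.6 and 37.9 in HT-29 and 7.99, 10.9 and 10.1 in HCT116 and had no count in CCD841CoN. It was at least 144-fold higher in LoVo, 346-fold in LS1034, 521-fold in HT-29 and 138-fold in HCT116 (adjusted p of at most 7.67e-08). The HT-29 and LS1034 libraries lay above those of LoVo and HCT116. HOXA7, a trunk gene, stood at 7.40, 10.0 and 14.2 CPM in LoVo, 19.3, 19.6 and 19.8 in LS1034, 5.32, 4.22 and 4.31 in HT-29 and 8.26, 9.05 and 18.8 in HCT116, against 0.0431, 0 and 0 CPM in CCD841CoN, where it had 1 count in all. The ratio was 734 in LoVo (95% counting interval 132 to 28988), 1360.4 in LS1034 (244 to 53735), 321 in HT-29 (57.6 to 12680) and 838 in HCT116 (150.4 to 33099). HOXA3, needed for thymus and parathyroid in mice, stood at 4.01, 2.06 and 3.79 CPM in LoVo, 21.0, 6.86 and 15.3 in LS1034, 12.995, 13.2 and 11.7 in HT-29 and 2.79, 4.001 and 2.52 in HCT116, with no count in CCD841CoN. It was at least 46.9-fold higher in LoVo, 206-fold in LS1034, 181-fold in HT-29 and 44.3-fold in HCT116 (adjusted p of at most 8.23e-06). In each of these genes the cancer and CCD841CoN libraries did not overlap.

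The other HOXA genes had line means under 9 CPM. HOXA5, a trunk and lung gene in mice, was called in all 4 lines at line means of 4.81 to 8.71 CPM, against 2 counts in CCD841CoN. HOXA6 was also called in all 4, with no count in CCD841CoN. HOXA2, which patterns the second pharyngeal arch, was called in LS1034 and HT-29, and HOXA4 in LS1034, HT-29 and HCT116, both with line means under 2.1 CPM. The HOXA2 call in LS1034 was lost without any 1 of 4 libraries (adjusted p = 0.0973 without LS1034 replicate 1). The HOXA4 call was lost in LS1034 without any 1 of 4 (0.0969 without CCD841CoN replicate 2) and in HCT116 without any 1 of 2 (0.0721 without HCT116 replicate 3).

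HOXB genes showed a switch within the cluster. HOXB9, a paralogue of HOXA9, stood at 22.6, 17.4 and 30.2 CPM in LoVo, 159.6, 85.3 and 104 in LS1034, 71.4, 80.3 and 45.9 in HT-29 and 21.2, 21.5 and 20.5 in HCT116, with no count in CCD841CoN, and was at least 334-fold higher in LoVo, 1658-fold in LS1034, 940.3-fold in HT-29 and 301-fold in HCT116 (adjusted p of at most 2.69e-08). HOXB13, which marks the prostate and the tail-end gut, stood at 16.1, 23.7 and 31.3 CPM in LoVo, 5.99, 5.82 and 5.65 in LS1034, 11.2, 5.71 and 7.05 in HT-29 and 9.84, 8.502 and 13.5 in HCT116, again with no count in CCD841CoN, and was at least 338-fold higher in LoVo, 83.1-fold in LS1034, 114-fold in HT-29 and 152-fold in HCT116 (adjusted p of at most 4.77e-07). Both genes separated every cancer library from every CCD841CoN library. At the other end of the cluster, HOXB2, which patterns the hindbrain, stood at 0.107, 0.0367 and 0.572 CPM in LoVo, 0.205, 0.373 and 0.336 in LS1034, 4.15, 3.996 and 1.28 in HT-29 and 0.713, 0.864 and 1.31 in HCT116, against 40.1, 51.7 and 55.2 CPM in CCD841CoN. The log2 fold changes of HOXB2 were -8.06 ± 0.78 in LoVo, -7.35 ± 0.74 in LS1034, -4.02 ± 0.61 in HT-29 and -5.79 ± 0.67 in HCT116 (adjusted p of at most 4.35e-05). Its levels in the cancer lines lay under all CCD841CoN levels.

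Between these ends lay genes with counts in both kinds of line. HOXB7, a trunk gene that is transcribed in many epithelial tumours, stood at 42.8, 36.1 and 86.6 CPM in LoVo, 84.0, 76.0 and 83.6 in LS1034, 51.9, 39.7 and 77.6 in HT-29 and 44.2, 46.6 and 69.7 in HCT116, against 33.7, 31.7 and 37.0 CPM in CCD841CoN. It was called in LS1034 (1.25 ± 0.36, adjusted p = 0.00816). In LoVo its log2 fold change was 0.60 ± 0.36, adjusted p = 0.170, in HT-29 0.65 ± 0.36, adjusted p = 0.142 and in HCT116 0.52 ± 0.36, adjusted p = 0.232. HOXB6, which neighbours HOXB7, stood at 10.7, 8.85 and 22.0 CPM in LoVo, 58.0, 53.7 and 52.4 in LS1034, 30.4, 22.1 and 28.9 in HT-29 and 4.84, 8.14 and 11.7 in HCT116, against 7.64, 12.9 and 10.8 CPM in CCD841CoN. It was called in LS1034 (2.40 ± 0.42, adjusted p = 1.56e-04) and in HT-29 (1.31 ± 0.40, adjusted p = 0.0128), and the HT-29 call was lost without CCD841CoN replicate 1 (adjusted p = 0.0603) or without HT-29 replicate 1 (adjusted p = 0.0536). The LoVo and HCT116 libraries overlapped those of CCD841CoN.

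HOXB3, a hindbrain and thyroid gene in mice, stood at 9.45, 6.02 and 9.44 CPM in LoVo, 39.8, 42.3 and 20.7 in LS1034, 28.3, 22.8 and 7.70 in HT-29 and 3.18, 3.23 and 3.39 in HCT116, against 3.62, 4.68 and 3.91 CPM in CCD841CoN. It was called in LS1034 (3.06 ± 0.45, adjusted p = 3.31e-05) and HT-29 (2.18 ± 0.44, adjusted p = 6.15e-04), and its HCT116 libraries lay under those of CCD841CoN without a call (-0.44 ± 0.43, adjusted p = 0.406). HOXB8, which blocks myeloid differentiation when forced on, stood at 2.11, 1.36 and 2.86 CPM in LoVo, 16.5, 8.31 and 9.41 in LS1034, 4.15, 1.98 and 1.74 in HT-29 and 3.89, 5.05 and 4.31 in HCT116, against 0.216, 0.561 and 0 CPM in CCD841CoN, and was called in all 4 lines (log2 fold changes 2.87 to 5.42). HOXB4, which expands blood stem cells when forced on, moved in opposite directions. It stood at 0.347, 0.404 and 0.358 CPM in LoVo, 10.3, 7.61 and 5.18 in LS1034, 2.43, 3.996 and 1.28 in HT-29 and 3.12, 7.27 and 3.35 in HCT116, against 1.55, 1.31 and 1.45 CPM in CCD841CoN, so that it was lower in LoVo (-2.08 ± 0.56, adjusted p = 0.00537) and higher in LS1034 (2.41 ± 0.53, adjusted p = 0.00130) and HCT116 (1.51 ± 0.52, adjusted p = 0.0231). The HCT116 call of HOXB4 was lost without any 1 of 4 libraries (adjusted p = 0.160 without HCT116 replicate 2), and HOXB4 was not called in HT-29. HOXB5 was called in HT-29 alone (1.55 ± 0.57, adjusted p = 0.0314), a call lost without any 1 of 5 libraries (adjusted p = 0.129 without CCD841CoN replicate 1).

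The HOXC genes that carried the CCD841CoN signal are central ones. HOXC8, which patterns thoracic vertebrae and brachial motor neurons in mice, stood at 0.0534, 0.0367 and 0.572 CPM in LoVo, 0.564, 0 and 0.269 in LS1034, 1.33, 1.75 and 2.11 in HT-29 and 0.565, 0.637 and 0.392 in HCT116, against 95.3, 73.5 and 67.0 CPM in CCD841CoN. The log2 fold changes of HOXC8 were -8.98 ± 0.94 in LoVo, -8.03 ± 0.88 in LS1034, -5.61 ± 0.77 in HT-29 and -7.33 ± 0.84 in HCT116 (adjusted p of at most 1.49e-05). No cancer library came near the lowest CCD841CoN library. HOXC6, another thoracic gene, stood at 1.76, 2.35 and 2.07 CPM in LoVo, 8.17, 1.53 and 7.73 in LS1034, 9.41, 4.68 and 9.34 in HT-29 and 2.08, 3.18 and 4.35 in HCT116, against 30.4, 29.9 and 31.5 CPM in CCD841CoN. It was lower in all 4 lines, with log2 fold changes between -4.02 ± 0.58 in LoVo and -2.05 ± 0.53 in HT-29.

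HOXC9, which represses forelimb-level HOX genes in mouse motor neurons, set HCT116 apart from the other cancer lines. It stood at 0.507, 0.0735 and 0.715 CPM in LoVo, 0.0769, 0.112 and 0 in LS1034, 0.199, 0.647 and 0 in HT-29 and 4.49, 5.09 and 9.79 in HCT116, against 11.1, 12.1 and 11.1 CPM in CCD841CoN. It was lower in LoVo, LS1034 and HT-29 (adjusted p of at most 2.13e-04), while HCT116 differed by -0.94 ± 0.73, adjusted p = 0.288, without a call. HCT116 also had HOXC10, a gene of lumbar motor neurons in mice, at 2.20, 1.68 and 2.39 CPM, against 0.129, 0 and 0 CPM in CCD841CoN, and HOXC13, a hair and nail gene, at 1.60, 1.68 and 2.04 CPM, against 0, 0 and 0.335 CPM (both called). HOXC10 had 3 counts in CCD841CoN, which gave a ratio of 48.5 (counting interval 16.6 to 235), and HOXC13 likewise 3 counts, with a ratio of 15.9 (5.44 to 77.2). HCT116 held 166 of the 191 HOXC10 counts in the unmixed libraries, so HOXC10 passed the filter on counts mainly through this line. The HOXC13 call was lost without any 1 of 2 libraries (adjusted p = 0.0849 without CCD841CoN replicate 1). HOXC4 and HOXC5, which share a start site in the RefSeq window, stayed under 3 CPM in every unmixed library. HOXC5 was called lower in LoVo and LS1034, and HOXC4 lower in LoVo, without a count there, and higher in HT-29. HT-29 held 163 of the 181 HOXC4 counts in the unmixed libraries, so HOXC4 passed the filter on counts mainly through HT-29. The LoVo and HT-29 calls of this pair were lost without any 1 of 2 to 5 libraries (adjusted p of 0.0611, 0.0790 and 0.0953 at most for HOXC4 in LoVo, HOXC5 in LoVo and HOXC4 in HT-29, without LoVo replicate 1 or CCD841CoN replicate 1).

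In HOXD the levels were low in most lines. HOXD13, the gene of synpolydactyly, stood at 14.6, 13.1 and 16.5 CPM in LoVo, 1.82, 1.45 and 1.34 in LS1034 and 0.798, 0.266 and 0 in HT-29, with no count in HCT116 or CCD841CoN. It was at least 210.4-fold higher in LoVo (adjusted p = 2.69e-05), 22.0-fold in LS1034 (6.37e-04) and 5.06-fold in HT-29 (0.00930). HOXD8, a central gene of the cluster, stood at 29.5, 8.92 and 23.0 CPM in LoVo, 0.589, 0.0746 and 0.538 in LS1034, 0.0332, 0.381 and 0 in HT-29 and 5.91, 4.001 and 3.48 in HCT116, against 2.03, 1.40 and 1.23 CPM in CCD841CoN. It was higher in LoVo (3.58 ± 0.78, adjusted p = 0.00107) and lower in HT-29 (-3.40 ± 0.89, adjusted p = 0.00431). In LS1034 it was lower (-1.97 ± 0.79, adjusted p = 0.0470), but this call was lost without any 1 of 8 libraries, namely LoVo replicates 1 and 3, LS1034 replicates 2 and 3, HCT116 replicate 3 and each CCD841CoN library (up to an adjusted p of 0.143 without CCD841CoN replicate 1), and with library size alone (adjusted p = 0.0762). HOXD1 was called in LoVo, at 1.90, 0.404 and 0.930 CPM, against no count in CCD841CoN, but not with DESeq2 (adjusted p = 0.0562). HOXD9 was called in LS1034, at 2.49, 0.485 and 0.807 CPM, against no count. Of the counts in the unmixed libraries, HOXD1 had 95 of 99 in LoVo and HOXD9 122 of 127 in LS1034. Each thus passed the filter on counts mainly through the line where it was called higher, and these 2 calls are not independent of that filter. All HOXD genes except HOXD8 had at most 4 counts in the CCD841CoN libraries together.

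**Figure D3:**
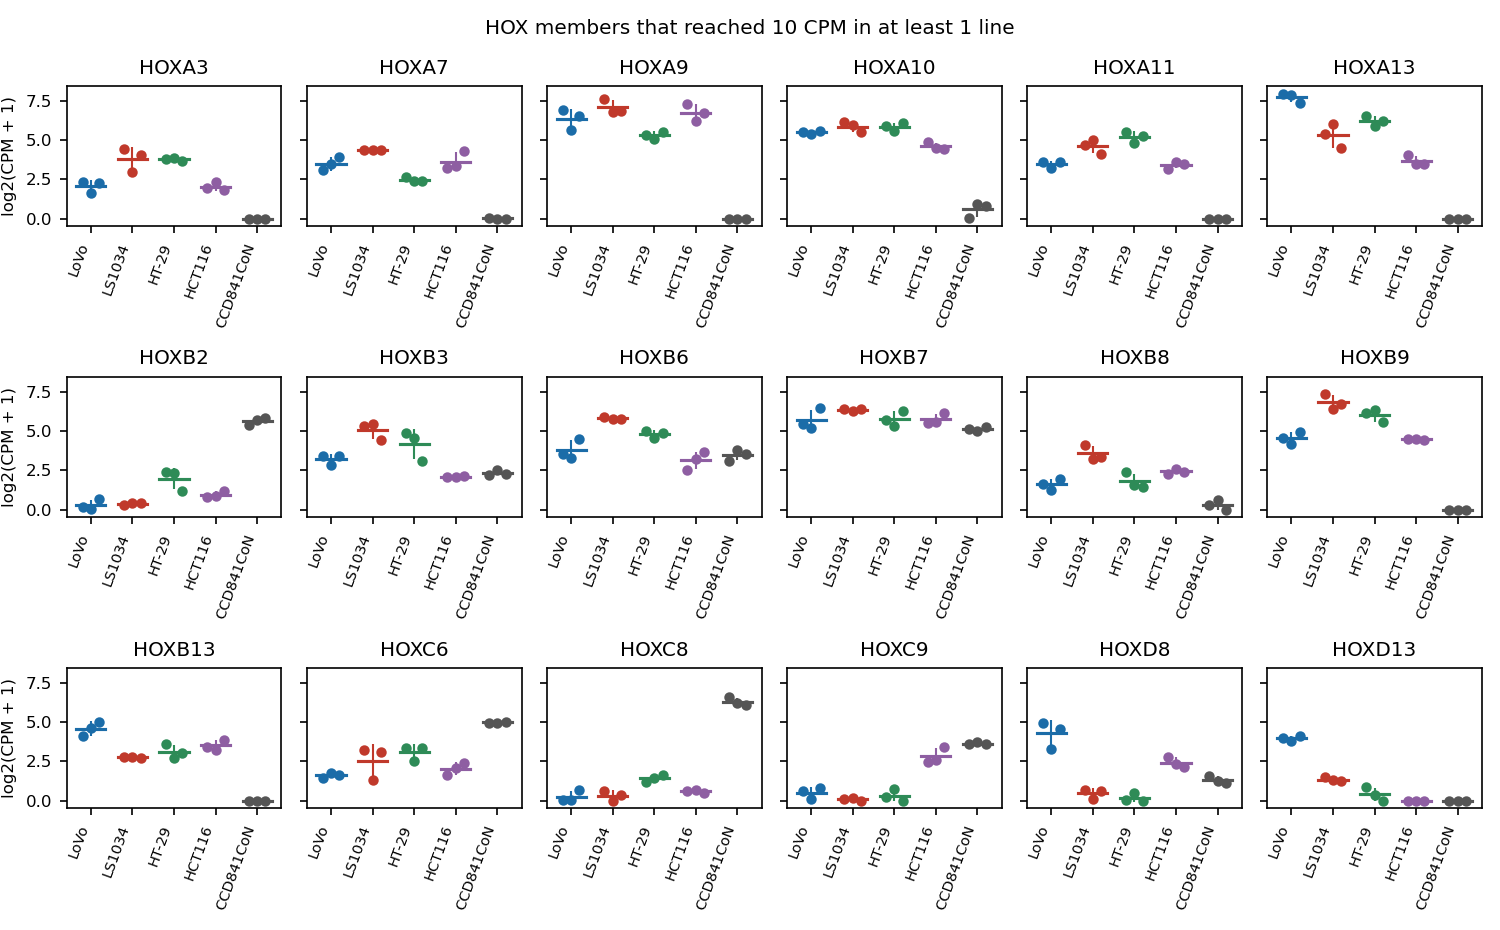
Level, as log2(CPM + 1), of the 18 HOX genes that reached a mean of 10 CPM in at least 1 line. Points are the 3 libraries of a line, horizontal bars their mean and vertical bars 1 SD. HOXA3, HOXA9, HOXA11, HOXA13, HOXB9 and HOXB13 had no count in CCD841CoN and counts in all 12 cancer libraries, and HOXB2, HOXC6 and HOXC8 were highest in CCD841CoN.

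Set against each other per kilobase of exon, different HOX genes led the line means, but the order within a cancer line was not the same in its 3 libraries. LoVo had HOXA13 at 42.1 CPM per kb, HOXA9 at 42.0 and HOXB7 at 40.2, and a different one of these led each of its libraries. LS1034 was led by HOXA9 at 67.3, HOXB7 at 59.2 and HOXB9 at 45.0 CPM per kb. HT-29 was led by HOXB7 at 41.1 and HOXB9 at 25.5, and HCT116 by HOXA9 at 53.5 and HOXB7 at 39.0. CCD841CoN was led by HOXC8 at 41.6, HOXB2 at 31.3 and HOXB7 at 24.9 CPM per kb. HOXC8 led all 3 CCD841CoN libraries, and HOXB7 was the only HOX gene among the leading 3 in all 15 unmixed libraries. These levels use the exons of the annotation, not the isoforms transcribed here, and were not tested between genes.

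The cancer lines were then compared with each other, which takes CCD841CoN out of the contrast. LoVo and LS1034 differed in 15 HOX genes, when 26.0% of all genes were called, with 5 higher in LoVo (13.2% of all genes) and 10 lower (12.8%). LoVo and HT-29 differed in 20 (27.2%), with 8 higher in LoVo (13.7%) and 12 lower (13.4%). LoVo and HCT116 differed in 11 (22.1%), with 6 higher in LoVo (11.9%) and 5 lower (10.2%); this count was 7 without LoVo replicate 1 or without HCT116 replicate 3. LS1034 and HT-29 differed in 9 (22.6%), with 5 higher in LS1034 (11.4%) and 4 lower (11.2%). This count was 6 without HT-29 replicate 3 and 11 without LoVo replicate 1, and 4 of the 9 calls were lost with some library left out. LS1034 and HCT116 differed in 15 (32.9%), with 10 higher in LS1034 (16.6%) and 5 lower (16.3%). HT-29 and HCT116 differed in 17 (30.6%), with 12 higher in HT-29 (15.2%) and 5 lower (15.4%).

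HOXA13 differed in 5 of the 6 comparisons between cancer lines. It was higher in LoVo than in LS1034 (2.20 ± 0.36, adjusted p = 3.59e-04), than in HT-29 (1.46 ± 0.35, adjusted p = 0.00619) and than in HCT116 (4.15 ± 0.39, adjusted p = 3.18e-06). It was also higher than in HCT116 in LS1034 (1.95 ± 0.36, adjusted p = 7.06e-04) and in HT-29 (2.69 ± 0.37, adjusted p = 7.88e-05), while LS1034 and HT-29 overlapped and differed by -0.75 ± 0.35, adjusted p = 0.138. HOXA11 and HOXA3 followed another order, with LS1034 and HT-29 above LoVo and HCT116: HOXA11 differed by 1.97 ± 0.35, adjusted p = 5.91e-04 between HT-29 and HCT116, and HOXA3 by 2.37 ± 0.49, adjusted p = 0.00170 between LS1034 and HCT116. HOXA9 was lowest in HT-29, with 1.91 ± 0.40, adjusted p = 0.00264 for LS1034 over HT-29 and -1.45 ± 0.39, adjusted p = 0.0102 for HT-29 over HCT116. LoVo over HT-29 was called for HOXA9 (1.11 ± 0.39, adjusted p = 0.0421), and lost the call without any 1 of 6 libraries (adjusted p = 0.137 without LoVo replicate 1).

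LS1034 stood above LoVo and HCT116 in several HOXB genes. HT-29 also had higher mean levels than LoVo and HCT116 in HOXB9 (65.9 CPM) and HOXB6 (27.2 CPM). HOXB9 was lower in LoVo than in LS1034 (-2.43 ± 0.34, adjusted p = 9.58e-05) and higher in LS1034 than in HCT116 (2.60 ± 0.34, adjusted p = 4.10e-05). HOXB6 followed, with -2.08 ± 0.41, adjusted p = 0.00108 for LoVo over LS1034 and 2.87 ± 0.42, adjusted p = 6.29e-05 for LS1034 over HCT116. HOXB3 differed by 3.51 ± 0.46, adjusted p = 2.08e-05 between LS1034 and HCT116, and HOXB4 by -4.49 ± 0.59, adjusted p = 3.02e-05 between LoVo and LS1034. HOXB13 went the other way and was higher in LoVo than in LS1034 (1.91 ± 0.42, adjusted p = 0.00320). HOXB7 was called in none of the 6 pairs, with log2 fold changes of -0.66 to 0.73 and SEs of 0.35 to 0.36.

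HOXC9 was lower than in HCT116 in LoVo (-3.92 ± 0.84, adjusted p = 0.00268), in LS1034 (-6.29 ± 1.00, adjusted p = 1.22e-04) and in HT-29 (-4.33 ± 0.86, adjusted p = 0.00109). HOXD8 was higher in LoVo than in LS1034 (5.55 ± 0.86, adjusted p = 1.43e-04) and HT-29 (6.98 ± 0.95, adjusted p = 5.04e-05), and lower in HT-29 than in HCT116 (-4.76 ± 0.89, adjusted p = 6.47e-04). HOXD13 was higher in LoVo than in LS1034 (3.14 ± 0.75, adjusted p = 0.00724) and HT-29 (5.17 ± 0.84, adjusted p = 5.94e-04), and at least 386-fold higher than in HCT116, which had no count. HOXD8 was also called higher in LoVo than in HCT116 (2.22 ± 0.72, adjusted p = 0.0328), but lost the call without any 1 of 5 libraries, LoVo replicates 1 and 3 and each HCT116 library (adjusted p = 0.117 without LoVo replicate 1), and the HCT116 libraries, at 3.48 to 5.91 CPM, held the gene above every CCD841CoN library.

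Libraries with equal replicate numbers deviated together in the cancer lines, so the 6 comparisons were also fitted with the replicate number as a block, which changed 8 calls of named genes. With the block HOXC6 lost its call between LoVo and LS1034 (adjusted p = 0.0699), HOXC8 between LS1034 and HT-29 (0.0875), and HOXB2 between LoVo and HCT116 (0.0736) and between HT-29 and HCT116 (0.0717). HOXA7 gained one between LoVo and LS1034 (0.0250), HOXB6 and HOXD13 between LS1034 and HT-29 (0.0180 and 0.0369) and HOXB8 between LS1034 and HCT116 (0.0199).

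**Figure D4:**
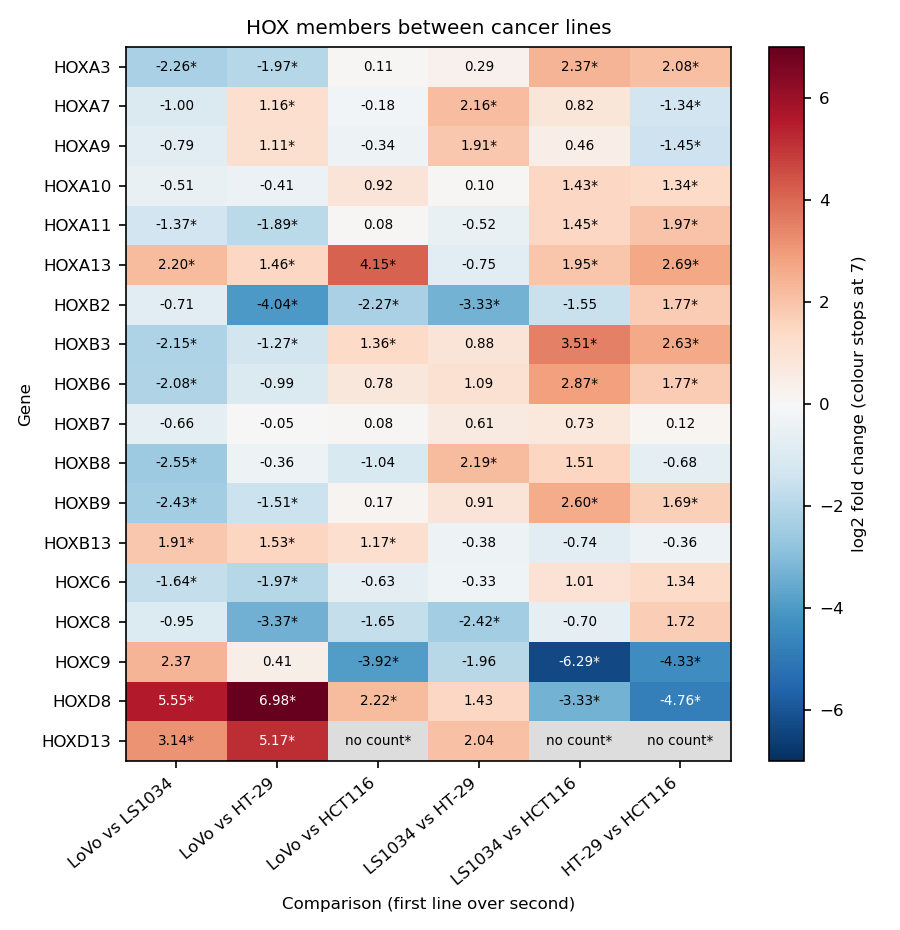
Log2 fold changes of the 18 HOX genes in the 6 comparisons between cancer lines, first line over second. An asterisk marks a call (adjusted p under 0.05, log2 fold change of 1 or more in either direction), and grey cells marked "no count" had no count in HCT116. HOXD8 was red in the LoVo columns, HOXD13 was red for LoVo against LS1034 and HT-29, and HOXC9 was blue in the 3 columns against HCT116.

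Other genes of the HOX system, in lists chosen with earlier results known, were tested in the same fit. Among the TALE cofactors, the PBX, MEIS and PKNOX proteins that bind DNA together with HOX proteins, 5 of 9 tested were lower and none higher in the mean of the cancer lines against CCD841CoN (median log2 fold change -1.80, against 0.22 over all genes). Among all genes 47.1% were called in that comparison, 24.8% higher and 22.3% lower. The 55.6% called here is near the share in either direction. All of these calls were lower, against the 22.3% of all genes, and this difference was not tested. MEIS1 stood at 2.94, 4.22 and 0.787 CPM in LoVo, 0.0256, 0.0373 and 0.0672 in LS1034, 3.49, 3.69 and 1.37 in HT-29 and 0, 0.364 and 0.0435 in HCT116, against 43.6, 38.7 and 39.0 CPM in CCD841CoN (-6.58 ± 0.47, adjusted p = 4.82e-09). MEIS3 stood at 9.37, 16.3 and 16.7 CPM in LoVo, 7.87, 3.80 and 8.54 in LS1034, 1.53, 2.28 and 0.550 in HT-29 and 14.1, 15.8 and 23.0 in HCT116, against 75.2, 84.8 and 75.8 CPM (-3.55 ± 0.28, adjusted p = 1.73e-08). For both genes the CCD841CoN libraries lay above every cancer library. MEIS2 was mixed: it stood at 5.77, 4.88 and 1.86 CPM in LoVo, 0.205, 0.447 and 0 in LS1034, 36.5, 27.7 and 19.97 in HT-29 and 8.02, 7.27 and 5.44 in HCT116, against 9.40, 11.6 and 15.7 CPM in CCD841CoN. It was lower in LoVo and LS1034 and above all CCD841CoN libraries in HT-29, where it was not called (adjusted p = 0.0783).

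The caudal genes CDX1 and CDX2, which switch on HOX genes in the posterior mouse embryo and specify the intestine, rose in the mean of the cancer lines together with PDX1, a pancreas and duodenum gene, which made 3 of 3 tested, when 24.8% of all genes were called higher. CDX2 stood at 43.2, 81.0 and 86.6 CPM in LoVo, 116, 152 and 79.4 in LS1034, 3.86, 1.90 and 5.86 in HT-29 and 9.21, 13.7 and 14.1 in HCT116, against 0, 0.187 and 0 CPM in CCD841CoN. CDX1 stood at 2.22, 1.51 and 5.44 CPM in LoVo, 249.8, 390.3 and 230.0 in LS1034, 1.83, 1.07 and 0.275 in HT-29 and 0, 0.0909 and 0 in HCT116, with no count in CCD841CoN, so LS1034 lay far above the other lines. Its call in the mean was lost without HCT116 replicate 2 (adjusted p = 1.00), which left HCT116 without a count as well. For CDX2 the LoVo and LS1034 libraries lay above all HT-29 and HCT116 libraries.

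Of 16 Polycomb subunits, which keep HOX genes silent, 7 were higher and none lower (median 0.68). EZH2, the methyltransferase of lysine 27 of histone H3, stood at 92.0, 117 and 101 CPM in LoVo, 73.4, 77.4 and 68.6 in LS1034, 58.5, 75.0 and 99.5 in HT-29 and 119, 113 and 94.9 in HCT116, against 16.9, 20.9 and 15.9 CPM in CCD841CoN (2.24 ± 0.22, adjusted p = 2.06e-07), and its partner SUZ12 differed by 2.03 ± 0.32, adjusted p = 4.71e-05. CBX2, a reader of that mark, differed by 2.44 ± 0.37, adjusted p = 3.47e-05. Of 11 Trithorax-type and demethylase genes, which keep HOX genes active, 5 were higher and none lower (median 0.97): KMT2A, the methyltransferase of lysine 4 that is fused in leukaemias with HOXA9 expression, differed by 2.02 ± 0.40, adjusted p = 3.81e-04, and DOT1L by 1.84 ± 0.49, adjusted p = 0.00429. The share called, 7 of 16 and 5 of 11, is near the 47.1% of all genes called in either direction. All of these calls were higher (43.8% and 45.5%), when 24.8% of all genes were called higher, and this difference was not tested.

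Of 16 genes next to the clusters, 5 were higher and 1 lower (median 0.57), which is 37.5% called against 47.1% of all genes. SKAP1, beside HOXB1 at the head end of the B cluster, stood at 5.02, 4.30 and 6.37 CPM in LoVo, 120.0, 91.6 and 108 in LS1034, 44.7, 24.7 and 37.9 in HT-29 and 12.9, 13.6 and 9.62 in HCT116, with no count in CCD841CoN. SKAP2, next to the A cluster, stood at 144, 119.9 and 108 CPM in LoVo, 58.7, 39.0 and 43.8 in LS1034, 119, 89.3 and 95.9 in HT-29 and 116, 52.6 and 60.9 in HCT116, against 27.2, 31.6 and 27.4 CPM. JAZF1, farther along from the A cluster, went the other way, at 3.66, 3.05 and 1.72 CPM in LoVo, 0.512, 0.224 and 0.0672 in LS1034, 0.432, 1.14 and 0.0916 in HT-29 and 4.52, 3.77 and 2.22 in HCT116, against 45.8, 34.999 and 43.2 CPM in CCD841CoN (-5.25 ± 0.38, adjusted p = 5.12e-09). Of 9 retinoic acid receptors and enzymes, the system that sets HOX borders in the embryo, 2 were higher and 2 lower (median 0.04), a share of 44.4% near the 47.1% of all genes. ALDH1A1, which makes retinoic acid, was lower in the mean of the lines (-3.15 ± 0.27, adjusted p = 4.43e-08) but stood at 195, 49.3 and 159 CPM in LoVo, 19.2, 21.4 and 17.3 in LS1034, 431, 411 and 499 in HT-29 and 0.0891, 0.273 and 0.218 in HCT116, against 187, 178 and 179 CPM in CCD841CoN. ALDH1A3, which makes it too, was higher (3.70 ± 0.41, adjusted p = 8.57e-07), and CYP26B1, which breaks it down, was lower (-3.17 ± 0.46, adjusted p = 1.75e-05).

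The mixtures placed the HOX genes of the cancer lines against a background of CCD841CoN RNA. In a fit over the 16 mixtures 13212 genes and 24 HOX genes were tested, and a call needed an adjusted p below 0.05 alone; the 4 mixtures of a percentage hold 4 different cancer lines, which served as the replicates. With 50% cancer RNA 20 HOX genes were called against 0.1%, when 54.0% of all genes were called, with 16 higher (30.5% of all genes) and 4 lower (23.5%). With 10% cancer RNA 9 were called, when 3.80% of all genes were called, all 9 higher (2.95% of all genes) and none lower (0.848%). This second count was 4 without the LoVo 0.1% mixture and 5 without the HT-29 0.1% mixture. The remaining 12 HOX genes did not pass the filter on counts over the 16 mixtures and were not tested. Among them was HOXD13, which averaged 14.7 CPM in unmixed LoVo and at most 1.54 CPM in the other lines.

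HOXB9 had no count in any 0.1% mixture. At 1, 10 and 50% it stood at 0.201, 3.22 and 15.8 CPM for LoVo, 1.17, 18.6 and 74.5 for LS1034, 1.58, 7.42 and 32.2 for HT-29 and 0.476, 2.09 and 7.84 for HCT116. It was called at 10% (adjusted p = 0.00376) and at 50% (adjusted p = 3.97e-05). HOXA9 kept a few counts at 0.1%. At 0.1, 1, 10 and 50% it stood at 0.267, 0.357, 12.4 and 48.1 CPM for LoVo, 0.363, 1.11, 18.1 and 65.0 for LS1034, 0.147, 0.937, 6.89 and 23.1 for HT-29 and 0.566, 1.15, 10.95 and 45.7 for HCT116. The unmixed means of HOXA9 were 86.5, 139, 39.2 and 110 CPM in the same order of lines. Each level at 0.1% lay above 0.1% of that mean, a difference that was not tested. Against the 0.1% mixtures HOXA9 was higher by 5.24 ± 0.49, adjusted p = 2.31e-05 at 10% and 7.17 ± 0.52, adjusted p = 2.88e-08 at 50%. HOXA13 stood at 0.121, 1.34, 20.6 and 73.2 CPM for LoVo, 0, 0, 2.38 and 12.4 for LS1034, 0, 0.820, 13.3 and 34.6 for HT-29 and 0, 0.532, 0.652 and 4.05 for HCT116. Its call at 10% (adjusted p = 0.0117) was lost without any 1 of 3 libraries (adjusted p = 0.0579 without the LoVo 0.1% mixture).

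At 10% HOXA3, HOXA5, HOXA6, HOXA7, HOXA10 and HOXB13 were also called. The call of HOXA3 was lost without any 1 of 5 mixtures (adjusted p = 0.0922 without the LoVo 0.1% mixture), as was that of HOXA5 (0.109 without the same mixture). That of HOXA7 was lost without any 1 of 4 (0.0912 without the HT-29 0.1% mixture), and those of HOXA6 and HOXB13 without the LoVo 0.1% mixture (0.0596 and 0.0528). HOXA9, HOXA10 and HOXB9 kept their calls in every alternative. HOXA11 was not called at 10% (adjusted p = 0.0549), but was with the cancer line as a block (adjusted p = 0.00306), and HOXB3 at 50% (adjusted p = 0.0390) lost its call with that block (adjusted p = 0.0589) and without any 1 of 6 mixtures (adjusted p = 0.310 without the LS1034 50% mixture).

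The 7 HOX genes with no count in CCD841CoN and at least 10 CPM in a cancer line, HOXA3, HOXA9, HOXA11, HOXA13, HOXB9, HOXB13 and HOXD13, were summed in each mixture. In the LoVo mixtures they held 16, 123, 2409 and 3648 counts together at 0.1, 1, 10 and 50%, in LS1034 14, 53, 2220 and 2804, in HT-29 8, 87, 717 and 6658, and in HCT116 8, 87, 265 and 1107. All 16 mixtures, those with 0.1% included, carried counts of genes that had none in the 3 CCD841CoN libraries. Whether the counts at 0.1% came from the cancer RNA was not tested. In CPM the sums were 0.388, 2.74, 44.1 and 165 for LoVo, 0.725, 2.95, 44.8 and 172 for LS1034, 0.392, 5.09, 38.02 and 125 for HT-29, and 0.647, 2.43, 17.3 and 72.3 for HCT116. At 0.1% only 2 of the 7 genes had a count in each mixture. With a handful of counts these levels carry wide counting error.

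Genes of CCD841CoN moved the other way. HOXC8 stood at 47.0, 40.1, 43.6 and 37.4 CPM in the 50% mixtures of LoVo, LS1034, HT-29 and HCT116, against 95.8, 99.4, 90.0 and 90.0 CPM in the 0.1% mixtures (-1.14 ± 0.09, adjusted p = 1.16e-07). HOXB2 stood at 18.9, 16.9, 17.9 and 23.5 CPM in the 50% mixtures, against 43.3, 39.4, 40.2 and 41.7 CPM in the 0.1% mixtures (-1.08 ± 0.11, adjusted p = 1.33e-06). In both genes every 50% mixture lay under every 0.1% mixture. HOXC6 and HOXC9 were the other 2 lower genes (-0.78 ± 0.15, adjusted p = 5.01e-04 and -0.87 ± 0.23, adjusted p = 0.00593). HOXB7 was higher by 0.69 ± 0.11, adjusted p = 1.19e-04, and HOXD8 was not called (0.40 ± 0.65, adjusted p = 0.626).

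The mixtures were also set against an arithmetic blend of the unmixed mean levels, without a test. Over HOX genes with a blend of at least 2 CPM the median ratio of measured to blended level was 0.799 to 1.16 in the 16 mixtures, against 0.915 to 1.04 over all such genes. Single genes departed further, with ratios of 0.337 to 2.04. The lowest was HOXB5 in the HT-29 mixture with 0.1%, at 1.03 CPM, where the blend gives 3.05 CPM, and the highest HOXB13 in the LoVo mixture with 10%, at 4.83 CPM, where the blend gives 2.37 CPM. HOXA13 in the LoVo mixture with 50% stood at 73.2 CPM, where the blend gives 106 CPM, while HOXB9 in the LS1034 mixture with 50% stood at 74.5 CPM, where the blend gives 58.1 CPM. The unmixed libraries these blends rest on spread too, HOXB9 in LS1034 between 85.3 and 159.6 CPM and HOXA13 in LoVo between 161 and 243 CPM. HOXB5 spread between 1.47 and 3.91 CPM in the CCD841CoN libraries, on which its blend in the HT-29 mixture with 0.1% mainly rests.

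**Figure D5:**
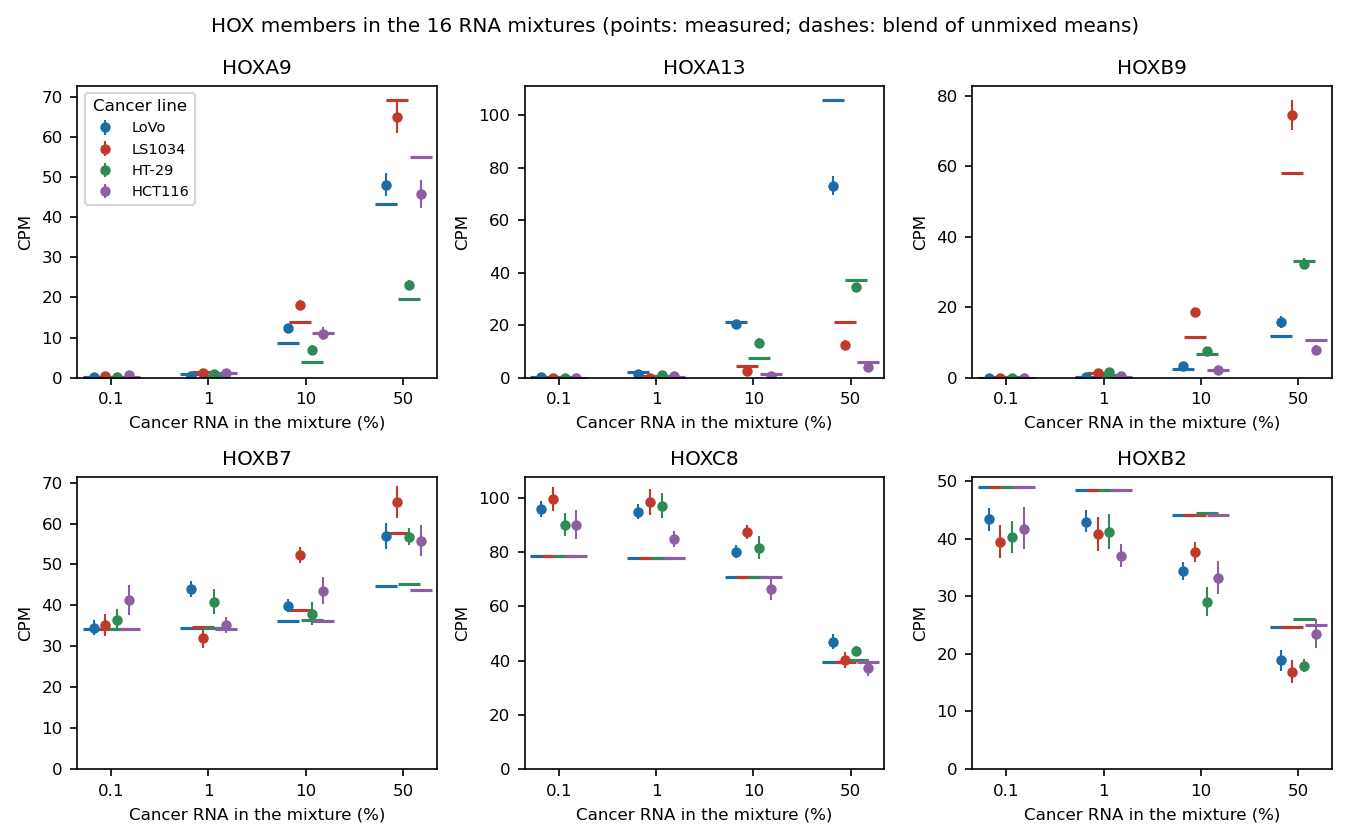
CPM of 6 HOX genes in the 16 mixtures by the percentage of cancer RNA, which is spaced by category. Points are single mixtures with 95% Poisson counting intervals, coloured by cancer line, and dashes are the blend of unmixed means. HOXA9, HOXA13 and HOXB9 were near 0 at 0.1% and highest at 50%, and HOXC8 and HOXB2 were lowest at 50%.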

How the data were processed

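Stranded libraries of total RNA after removal of ribosomal RNA were sequenced, per the labels' protocols, for 5 unmixed lines (3 libraries each) and 16 mixtures (1 library each). The authors deposited raw counts per coding gene, made with STAR and featureCounts on hg19 per the submitters' processing notes. The versions, the annotation and the strand setting are not given in the sources used here. Read lengths and duplicates are likewise not given, so counting intervals treat each count as independent.

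From the counts, CPM were computed on library sizes scaled by TMM over the 31 libraries. Tests used edgeR 4.0.16 (quasi-likelihood, filterByExpr, R 4.3.3) with Benjamini-Hochberg adjustment over all genes tested, in 1 fit over the 15 unmixed libraries and 1 over the 16 mixtures. The scripts were tested on simulated counts. Against a line without a count, folds are lower bounds set by a floor of 3 counts over its libraries, and with 1 to 3 counts a ratio with its 95% counting interval is given. Levels per kilobase use exon lengths of the GENCODE table given with the reference, and promoters come from RefSeq. Figures were drawn with matplotlib 3.10.9.

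The members and lists were chosen with earlier results of these data known. Values in every unmixed library are given for HOX genes with a mean of at least 10 CPM in a line, and at most 4 genes a list are named, by the widest range of line means among those reaching that level. HOXB4 and PDX1 are named outside this rule, after their values were seen. Library values of HOXC10, HOXC13, HOXD1 and HOXD9 in some lines, and the HOXB5 values set against a blend, are likewise given outside it. Equal replicate numbers paired the cancer lines: in all 18 pairings the libraries of 2 lines deviated most alike at equal numbers (r of 0.104 to 0.723), against none of 12 with CCD841CoN (r of -0.0746 to 0.0150). No libraries of a line agreed within sampling noise. Alternatives were DESeq2 1.42.0 and its size factors, library size alone, no filter, only the compared groups, blocks for the replicate number or the cancer line, and each library left out in turn. Values of 1 HOX gene are not reported here.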

Additional observations from a re-analysis of the deposited data

Results flagged for a closer look

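In 3 HOX genes a pair of cancer lines moved in opposite directions from CCD841CoN, both past the threshold, and the difference between the lines was itself called. HOXB4 was lower than CCD841CoN in LoVo (log2 fold change -2.08) and higher in LS1034 (2.41) and HCT116 (1.51, lost without any 1 of 4 libraries). The differences were -4.49 between LoVo and LS1034 and -3.59 between LoVo and HCT116. HOXD8 was higher than CCD841CoN in LoVo (3.58) and lower in LS1034 (-1.97, lost without any 1 of 8 libraries) and HT-29 (-3.40), with differences of 5.55 between LoVo and LS1034 and 6.98 between LoVo and HT-29. The HOXC4 counts were 0 in LoVo and 163 in HT-29, against 7 in CCD841CoN, over 3 libraries each. Both HOXC4 calls against CCD841CoN were lost with a library left out, in LoVo without any 1 of 2 libraries and in HT-29 without any 1 of 5. The fitted difference of HOXC4 between LoVo and HT-29, -8.59, rests on a line without a count, and its size depends on the prior count of the fit. HOXC4 shares its start site with HOXC5 in the RefSeq window, so reads of this pair of genes may be split.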

How the results depend on the processing

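Of 221 calls on HOX genes in the 13 comparisons, 173 kept their side of the threshold and their direction in every alternative that tested them. In at least 1 alternative 48 lost the call, and none turned round. An alternative in which the gene did not pass the filter or the comparison was not fitted was left out of these counts. The number of HOX genes called moved by over 1.5 times in 2 comparisons, each time with a library left out. For LoVo against HCT116 it ranged from 7 (without LoVo replicate 1 or HCT116 replicate 3) to 11, the number with all libraries. For the 10% against the 0.1% mixtures it ranged from 4 (without the LoVo 0.1% mixture; 5 without the HT-29 0.1% mixture) to 10, against 9 with all. LS1034 against HT-29 gave 6 to 11 called HOX genes with a library left out, against 9 with all. With a library left out, the comparisons with CCD841CoN gave 19 to 23 called HOX genes for LoVo, 22 to 25 for LS1034, 21 to 24 for HT-29 and 16 to 19 for HCT116. With the replicate block over all 15 libraries the comparisons with CCD841CoN gave 18 to 25 called HOX genes; the paired numbers of the cancer lines changed the calls given with the comparisons between lines and no other call of the HOX genes given in full there, with 10 to 21 called HOX genes a pair of lines. Genes with a few counts per library, as most HOXD and low HOXC genes had, limit what the depth can show: a gene without a count in the 3 CCD841CoN libraries may still stand at up to 0.0701 CPM there. Annotation, strand and culture of the libraries could not be varied.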

Other observations

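Replicate 2 was the lowest library in all 4 cancer lines for HOXA5 and HOXA9, 2 of the 32 HOX genes tested (6.25%), against 464 of 14452 genes (3.21%).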
